A study of Homo sapiens with 12 samples.

Results

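The difference between cells overexpressing CD44s and cells overexpressing CD44v6 was compared between 2 colon cancer cell lines, HCT116 and SW480. The comparison used the 8 overexpression (OE) samples among the 12 samples of the series, chosen by their labels and not by any measured value. They form 4 groups of 2 replicates: HCT116 CD44s-OE, HCT116 CD44v6-OE, SW480 CD44s-OE and SW480 CD44v6-OE. Each OE line was made by plasmid transfection and Geneticin selection, and 2 parental samples per line are shown beside them. For each gene, the isoform contrast is the log2 fold change of CD44s-OE over CD44v6-OE within a line, and the interaction is the SW480 contrast minus the HCT116 contrast. A negative interaction therefore means that CD44s-OE stood lower, relative to CD44v6-OE, in SW480 than in HCT116. The 12 parental and OE libraries are poly(A) RNA, with 43102156 to 52811889 counts each. No empty-vector library was analysed here, and the labels do not say whether replicates came from separate transfections or cultures, so the p-values measure the spread between these libraries, which may be technical. The deposited column names of the OE libraries carry the word POOL and those of the parental libraries do not. What POOL means for these libraries is not explained, so OE and parental replicates may differ in kind. Effects of plasmid, selection and isoform cannot be told apart, and in bulk RNA neither can fewer cells of a kind and less RNA per cell.

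CD44 is a transmembrane receptor for hyaluronan whose pre-mRNA is spliced into a standard form, CD44s, which lacks the variable exons, and into variant forms such as CD44v6, which keep variable exon 6. The splicing factor ESRP1 favours inclusion of the variable exons in epithelial cells. In epithelial-mesenchymal transition (EMT), epithelial cells lose junction and polarity proteins and gain mesenchymal ones such as vimentin, under transcription factors of the ZEB, SNAI and TWIST families. HCT116 and SW480 both come from colorectal adenocarcinomas, and SW480 carries more vimentin RNA in these libraries, as given further on.

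Total CD44 RNA, which sums its isoforms, had an interaction of 0.36 ± 0.20 (SE, adjusted p = 0.585) and was not called. It stood at 571 and 516 CPM in HCT116 CD44s-OE and 503 and 507 CPM in HCT116 CD44v6-OE. In SW480 it stood at 179 and 205 CPM in CD44s-OE and 134 and 146 CPM in CD44v6-OE, so the OE pairs of each line did not overlap. In the parental libraries it was at 539 and 540.3 CPM in HCT116 and 187 and 161 CPM in SW480. CD44v6-OE was thus below parental cells in both lines, and CD44s-OE overlapped with them in both. Total CD44 counts alone therefore do not show the overexpression that the group labels name. The paper examined it by other measures, RT-qPCR of each isoform relative to constitutive CD44 exons and western blots of the protein. Counts summed over isoforms cannot be set directly against these. CPM are counts scaled to the library total after TMM scaling of all 12 libraries to each other, and every CPM below is on this scale, whereas fold changes and tests come from the 8 OE libraries. CD44-AS1, an antisense gene within the CD44 locus, was chosen after its values were seen. It stood at 1.84 and 2.22 CPM in HCT116 CD44v6-OE and at 3.36 and 3.87 CPM in SW480 CD44v6-OE, against at most 0.0630 CPM in the other libraries, with an interaction that was not called (adjusted p = 0.661). In both lines it therefore separated the libraries labelled CD44v6-OE from the others.

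The isoform contrast differed between the lines for 223 of 19155 genes tested, or 1.16% (edgeR quasi-likelihood test, Benjamini-Hochberg adjusted p under 0.1). Of these, 175 genes (0.914% of those tested) had a negative interaction and 48 (0.251%) a positive one. At an unadjusted p under 0.05 there were 1927 genes. Over all genes tested the median interaction was -0.01, so the centre of all genes was near 0. Within the lines, an adjusted p under 0.1 was reached by 229 genes (1.2%) in HCT116 and by 704 genes (3.68%) in SW480. In HCT116, 145 of those 229 genes were higher in CD44s-OE, whereas in SW480 506 of the 704 were lower in CD44s-OE.

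More of the 223 called genes passed the test within SW480 than within HCT116. The isoform contrast passed an adjusted p under 0.1 in SW480 alone for 132 of them, in HCT116 alone for 53, in both lines with opposite signs for 5, in both with the same sign for 7 and in neither line for 26. Passing in 1 line alone does not mean that the other line was unchanged. By sign alone, 112 of the 175 negative calls were higher in HCT116 CD44s-OE and lower in SW480 CD44s-OE. Of the 48 positive calls, 41 were lower in HCT116 CD44s-OE and higher in SW480 CD44s-OE. Such opposite signs are partly built in, since the genes were called on the difference between the lines. The 105 genes with a negative interaction that passed in SW480 alone were mostly low in CD44s-OE against parental SW480 cells too. In 93 of these 105, both SW480 CD44s-OE libraries lay below both SW480 parental libraries, which was so for 17.9% of all genes tested. Both SW480 CD44v6-OE libraries lay above both SW480 parental libraries in 45 of the 105 and below them in 7. No share of all genes tested is at hand for these counts, so no trait of the 105 genes is read from them. Both HCT116 CD44s-OE libraries lay above both HCT116 parental libraries in 49 of the 105, against 26.4% of all genes tested. They lay below them in 21, a count that also has no such share beside it. The 44 genes with a negative interaction that passed in HCT116 alone were mostly high in HCT116 CD44s-OE. Both HCT116 CD44s-OE libraries lay above both HCT116 parental libraries in 39 of these 44, against 26.4% of all genes tested. Both sets of genes were chosen on contrasts that use these same CD44s-OE libraries. High shares against parental cells are thus partly built in and are no independent evidence. Of the 223 genes, 183 reached a mean of 1 CPM in an OE group of each line, and the other 40 were below 1 CPM in 1 line or both.

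**Figure D1:**
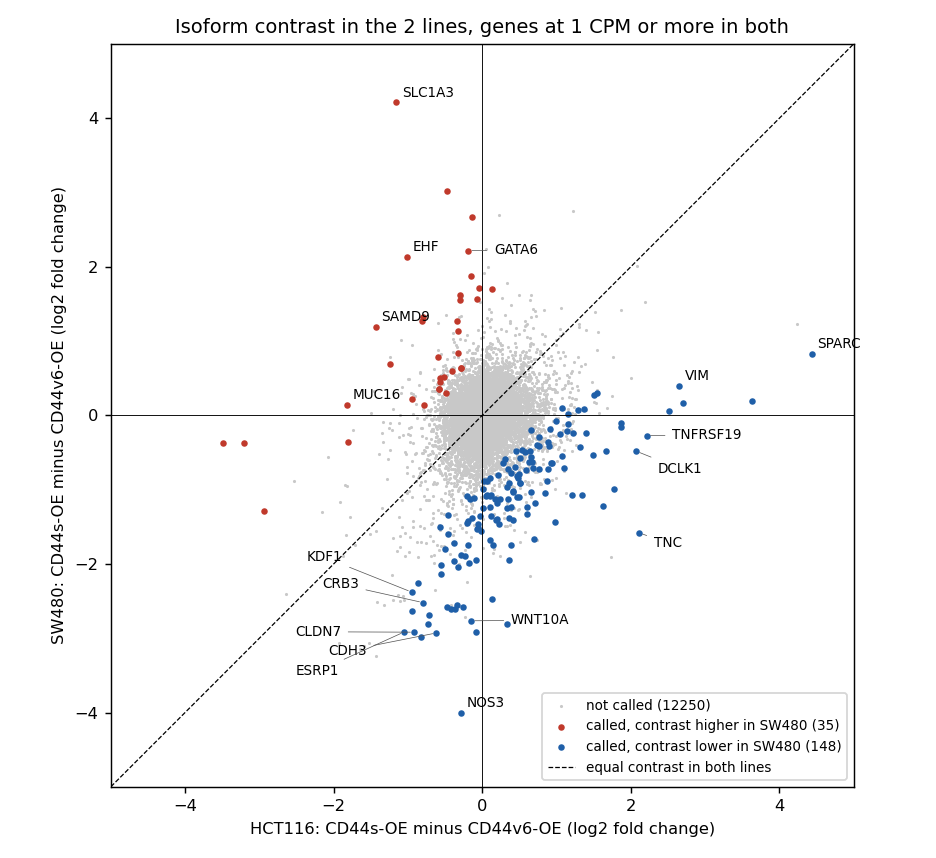
Isoform contrast (log2 fold change of CD44s-OE over CD44v6-OE) in HCT116 on the horizontal axis and in SW480 on the vertical axis, for the 12433 genes with at least 1 CPM in an OE group of each line. Each point is 1 gene, blue and red points are the 148 negative and 35 positive calls, and CD44-AS1 lies outside the axes. Blue points spread down the SW480 axis (NOS3, CDH3, ESRP1) and out along the HCT116 axis (SPARC, VIM, TNFRSF19).

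The libraries were not equally reproducible. Over 11926 genes, the SD of the log2 difference between the 2 libraries of a group was 0.481 in HCT116 CD44s-OE, 0.189 in HCT116 CD44v6-OE, 0.330 in SW480 CD44s-OE and 0.336 in SW480 CD44v6-OE. It was 0.314 in HCT116 parental and 0.486 in SW480 parental cells, where 562 genes differed by more than 2-fold between the 2 libraries. In every group the libraries differed by more than counting noise, so none was treated as a duplicate. The closest pair, HCT116 CD44v6-OE, had 5.32 times the variance that counting both reads of a pair allows. With each OE library left out in turn, the number of called genes ran from 60 without HCT116 CD44v6-OE replicate 2 to 1284 without HCT116 CD44s-OE replicate 2. It was 678 without HCT116 CD44s-OE replicate 1, 85 without HCT116 CD44v6-OE replicate 1, and 63 to 177 without a SW480 library. The number of calls thus depended on single libraries. With the 4 parental libraries in the same fit, 96 of the 223 genes were called and no further gene. Below, the number of these 8 fits in which a called gene stayed called is given beside it. A loss of the call with all 12 libraries is also given.

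Most called epithelial genes were low in CD44s-OE of SW480 by more than in HCT116. Of 19 tested epithelial identity genes, 6 had a negative and 2 a positive interaction that was called, with a median of -0.51 beside -0.01 for all genes. Over all genes tested, 0.914% were called negative, 0.251% were called positive and 51.1% had a negative interaction. The counts of this and every later list stand beside these shares. In SW480, 13 of these 19 genes were lower and 1 was higher in CD44s-OE at an adjusted p under 0.1, and in HCT116 7 were lower and 0 higher. With a library left out, 2 to 8 genes of the list were called negative and 1 to 3 positive, 7 and 2 without HCT116 CD44s-OE replicate 1 and 8 and 2 without its replicate 2. Beside those described next, the called negative genes were SPINT1 (-1.24) and SPINT2 (-0.88), inhibitors of membrane serine proteases, named after their values were seen. Of 13 tested tight junction genes 3 were called, and of 13 tested apical polarity and sorting genes 1 was called, each with a negative interaction, at medians of -0.48 and -0.40. The list of splicing regulators of EMT had 1 called gene of 16, ESRP1. The sum of 10 markers of colon epithelium was also lower in SW480 CD44s-OE, at 8186 to 10080 CPM against 13730 to 15020 CPM in SW480 CD44v6-OE. Parental SW480 cells had 17090 to 18930 CPM, above both OE groups. In HCT116 the sum was 6050 to 6877 CPM in CD44s-OE, 6658 to 7488 CPM in CD44v6-OE and 6860 to 8472 CPM in parental cells. Such a sum is set mostly by its most abundant members, and EPCAM and CDH1, given further on, made up little of it. Of these markers 8 were tested and 0 called in the interaction, and each of the 8 had a negative interaction, at a median of -0.67. The part in single genes of whatever changed this sum was not tested. These lists include genes known from earlier results of these data, so their counts are no independent evidence of a direction.

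CDH3 (chromosome 16, 68670092 to 68756519, hg19) encodes P-cadherin, an adhesion protein of epithelial junctions. It stood at 160.3 and 127 CPM in HCT116 CD44s-OE and 223 and 219 CPM in HCT116 CD44v6-OE. In SW480 it stood at 5.84 and 4.78 CPM in CD44s-OE and 36.9 and 44.6 CPM in CD44v6-OE. CD44s-OE was thus the low group in both lines, with no overlap, and the gap was wider in SW480, where the contrast was -2.93 against -0.62 in HCT116. The interaction was -2.31 ± 0.24 (SE, adjusted p = 0.00113), and the call held in 8 of 8 fits with a library left out. Parental cells had 226 and 234 CPM in HCT116 and 21.7 and 36.8 CPM in SW480, near the CD44v6-OE values in HCT116 and at or below them in SW480.

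ESRP1 (chromosome 8, 95653302 to 95719694) encodes the splicing factor that favours the variable exons of CD44. Its levels were 47.3 and 41.5 CPM in HCT116 CD44s-OE and 90.7 and 94.3 CPM in HCT116 CD44v6-OE. In SW480 they were 7.71 and 4.63 CPM in CD44s-OE and 48.4 and 45.3 CPM in CD44v6-OE. Both lines had less ESRP1 in CD44s-OE, and the loss was larger in SW480 (contrast -2.92, adjusted p = 9.88e-06) than in HCT116 (-1.05, adjusted p = 0.0242), with an interaction of -1.86 ± 0.28 (SE, adjusted p = 0.00967) that held in 8 of 8 fits with a library left out. Its parental levels, 122 and 106 CPM in HCT116 and 37.4 and 30.2 CPM in SW480, lay above the CD44s-OE levels in each line.

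Claudin 7, a strand protein of tight junctions, is encoded by CLDN7 (chromosome 17, 7163222 to 7167302). Its RNA was at 88.5 and 59.3 CPM in HCT116 CD44s-OE and 136 and 144 CPM in HCT116 CD44v6-OE. SW480 had 16.98 and 17.7 CPM in CD44s-OE and 119.6 and 145 CPM in CD44v6-OE. CD44v6-OE was at similar levels in the 2 lines, and CD44s-OE was lower in HCT116 and lower still in SW480. The interaction was -2.001 ± 0.26 (SE, adjusted p = 0.00543), called in 8 of 8 fits. Of the other called junction genes, F11R, which encodes the junctional adhesion molecule JAM-A, was at 21.5 and 18.4 CPM in HCT116 CD44s-OE and 19.9 and 22.1 CPM in HCT116 CD44v6-OE. In SW480 F11R was at 3.87 and 3.499 CPM in CD44s-OE and 11.2 and 10.4 CPM in CD44v6-OE. The HCT116 groups overlapped and the SW480 groups did not, and the interaction was -1.47 ± 0.26 (SE, adjusted p = 0.0202). TJP3, encoding the scaffold ZO-3, was at 61.4 and 46.9 CPM in HCT116 CD44s-OE and 81.8 and 71.8 CPM in HCT116 CD44v6-OE. The SW480 values of TJP3 were 2.84 and 3.34 CPM in CD44s-OE and 11.1 and 10.5 CPM in CD44v6-OE. Its interaction was -1.30 ± 0.26 (SE, adjusted p = 0.0379), called in 2 of 8 fits against 5 of 8 for F11R.

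The polarity gene CRB3 (chromosome 19, 6463788 to 6467232), whose product marks the apical membrane, was at 17.6 and 14.8 CPM in HCT116 CD44s-OE and 28.7 and 27.6 CPM in HCT116 CD44v6-OE. In SW480 CRB3 was at 3.53 and 3.32 CPM in CD44s-OE and 19.5 and 20.1 CPM in CD44v6-OE. The SW480 CD44s-OE libraries were far below the other SW480 libraries, parental ones included (18.5 and 16.96 CPM). The interaction was -1.72 ± 0.25 (SE, adjusted p = 0.0083), called in 8 of 8 fits. KDF1, a regulator of keratinocyte differentiation, was at 26.97 and 18.3 CPM in HCT116 CD44s-OE and 45.8 and 41.8 CPM in HCT116 CD44v6-OE. SW480 had 2.88 and 3.16 CPM in CD44s-OE and 16.2 and 15.5 CPM in CD44v6-OE of KDF1, with an interaction of -1.43 ± 0.29 (SE, adjusted p = 0.0393) that held in 2 of 8 fits. OVOL2, a transcription factor that represses EMT genes, was at 1.43 and 2.13 CPM in HCT116 CD44s-OE and 1.96 and 2.24 CPM in HCT116 CD44v6-OE. In SW480 OVOL2 was at 2.52 and 2.39 CPM in CD44s-OE and 9.54 and 8.95 CPM in CD44v6-OE. The HCT116 groups of OVOL2 overlapped, SW480 CD44s-OE stood apart from SW480 CD44v6-OE, and the interaction was -1.66 ± 0.39 (SE, adjusted p = 0.0806), called in 2 of 8 fits and not with all 12 libraries.

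The promoters of the called epithelial and junction genes were read for the E-box CACCTG or CAGGTG (the same 6 letters on either strand), the sequence that ZEB and SNAI factors are known to bind. Shown are the windows from 250 bases before to 50 bases after the start (RefSeq, GRCh38.p14, on the gene's strand) of the 5 called negative genes of the epithelial, junction and polarity lists that had an entry, and of EHF, whose interaction was positive. Capitals mark the E-box.
CLDN7, chr17:7262429-7262728, minus strand: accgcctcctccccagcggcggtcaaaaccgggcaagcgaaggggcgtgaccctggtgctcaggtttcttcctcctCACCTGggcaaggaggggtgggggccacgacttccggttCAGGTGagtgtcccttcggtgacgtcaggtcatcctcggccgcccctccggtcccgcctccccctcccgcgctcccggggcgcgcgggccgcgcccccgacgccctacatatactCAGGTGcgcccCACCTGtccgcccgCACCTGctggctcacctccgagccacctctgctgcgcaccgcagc
CRB3, chr19:6464021-6464320, plus strand: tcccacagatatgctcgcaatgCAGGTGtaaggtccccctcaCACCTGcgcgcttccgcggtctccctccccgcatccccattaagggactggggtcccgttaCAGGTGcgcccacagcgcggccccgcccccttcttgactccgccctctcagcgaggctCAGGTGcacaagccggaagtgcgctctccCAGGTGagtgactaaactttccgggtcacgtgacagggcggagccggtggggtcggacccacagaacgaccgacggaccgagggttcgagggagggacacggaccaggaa
KDF1, chr1:26960419-26960718, minus strand: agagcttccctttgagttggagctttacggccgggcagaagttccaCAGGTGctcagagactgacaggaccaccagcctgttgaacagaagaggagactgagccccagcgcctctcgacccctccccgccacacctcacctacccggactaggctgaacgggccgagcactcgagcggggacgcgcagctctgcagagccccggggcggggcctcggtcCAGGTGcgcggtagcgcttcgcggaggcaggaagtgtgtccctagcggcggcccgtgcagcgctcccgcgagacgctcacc
TJP3, chr19:3721487-3721786, plus strand: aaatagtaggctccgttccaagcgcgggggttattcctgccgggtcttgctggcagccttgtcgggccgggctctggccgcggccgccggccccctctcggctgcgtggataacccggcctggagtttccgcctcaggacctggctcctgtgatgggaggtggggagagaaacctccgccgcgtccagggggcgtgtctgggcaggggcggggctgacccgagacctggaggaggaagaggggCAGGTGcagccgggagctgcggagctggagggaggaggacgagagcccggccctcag
SPINT1, chr15:40843798-40844097, plus strand: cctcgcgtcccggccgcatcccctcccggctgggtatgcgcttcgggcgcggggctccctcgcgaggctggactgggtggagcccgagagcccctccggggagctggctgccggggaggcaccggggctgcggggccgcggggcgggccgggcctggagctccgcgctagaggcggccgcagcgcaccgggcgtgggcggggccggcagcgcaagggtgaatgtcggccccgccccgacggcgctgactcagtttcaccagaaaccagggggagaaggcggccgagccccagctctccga
EHF, chr11:34632316-34632615, plus strand: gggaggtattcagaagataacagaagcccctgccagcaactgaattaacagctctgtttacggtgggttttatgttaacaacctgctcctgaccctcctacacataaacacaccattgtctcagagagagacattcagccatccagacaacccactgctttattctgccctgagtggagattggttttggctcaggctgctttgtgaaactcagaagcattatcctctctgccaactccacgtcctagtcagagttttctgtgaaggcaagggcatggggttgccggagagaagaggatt
CLDN7 and CRB3 each held 5 E-boxes, KDF1 2 and TJP3 1, whereas SPINT1, which was also called negative, and EHF held 0. Of the 25 tested genes of these lists with an entry, called or not, 13 (52.0%) held the E-box. The E-box was in 19.9% of the 300-base windows of the 12648 tested genes with a RefSeq entry, in 23.4% of those in the highest of 4 equal bins of transcript GC content, in 37.3% of the 118 genes with a called negative interaction and in 18.9% of the 37 with a called positive one. These shares are descriptions of letters in a window, and neither binding nor a part of the E-box in the RNA levels was tested.

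ZEB1, which represses epithelial genes, was not called in the interaction. ZEB1 was at 16.3 and 10.02 CPM in HCT116 CD44s-OE and 3.63 and 3.601 CPM in HCT116 CD44v6-OE. In SW480 ZEB1 was at 26.5 and 14.4 CPM in CD44s-OE and 8.12 and 7.27 CPM in CD44v6-OE. It was higher in CD44s-OE in both lines, with contrasts of 1.87 (adjusted p = 0.0106) in HCT116 and 1.42 (adjusted p = 0.0164) in SW480, and its interaction of -0.44 ± 0.40 (SE, adjusted p = 0.785) was not called. Of the 6 tested EMT transcription factor and intermediate filament genes, VIM was called. The list median of 0.40 ran from -0.29 to 0.51 with a library left out, and ZEB2, TWIST2, TCF4 and CDH2 had too few counts to test.

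Of the further genes named by the study, MAL2, EPCAM, CDH1 and IL32 had negative interactions that were not called. MAL2, a protein of apical transport, was at 35.7 and 26.9 CPM in HCT116 CD44s-OE and 91.9 and 105 CPM in HCT116 CD44v6-OE. SW480 had 4.96 and 2.39 CPM in CD44s-OE and 29.4 and 35.9 CPM in CD44v6-OE of MAL2. Its contrasts were -1.65 in HCT116 and -3.15 in SW480, both passing the threshold, and its interaction -1.50 ± 0.37 (SE, adjusted p = 0.112) did not. EPCAM, an epithelial adhesion molecule, had an interaction of -0.89 (adjusted p = 0.203), with 80.1 and 121 CPM in HCT116 CD44s-OE and 178 and 177 CPM in HCT116 CD44v6-OE. In SW480, EPCAM was at 70.8 and 69.6 CPM in CD44s-OE and 260.1 and 203 CPM in CD44v6-OE. CDH1, encoding E-cadherin, was at 22.2 and 14.6 CPM in HCT116 CD44s-OE and 50.2 and 48.6 CPM in HCT116 CD44v6-OE. SW480 CD44v6-OE replicates of CDH1 differed widely, at 5.28 and 15.7 CPM against 1.32 and 0.890 CPM in SW480 CD44s-OE, and its interaction was -1.81 ± 0.70 (SE, adjusted p = 0.445). The cytokine genes IL32 and CSF2 had interactions of -0.94 (adjusted p = 0.455) and -0.38 (adjusted p = 0.948), with CSF2 under 0.4 CPM in every HCT116 OE library. Over the 12 genes the study names, 4 were called negative and 1 positive, at a median of -1.18, which is no independent evidence since they were picked on these libraries.

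Among the epithelial genes, EHF had the opposite sign, a called positive interaction. EHF (chromosome 11, 34642640 to 34684835), an epithelial ETS transcription factor, was at 11.1 and 18.04 CPM in HCT116 CD44s-OE and 29.9 and 29.2 CPM in HCT116 CD44v6-OE. In SW480 EHF was at 38.1 and 41.8 CPM in CD44s-OE and 11.4 and 6.895 CPM in CD44v6-OE. The order of the groups was opposite in the lines, CD44s-OE being the low group in HCT116 and the high group in SW480, with contrasts of -1.01 (adjusted p = 0.102) and 2.14 (adjusted p = 4.72e-04). Its interaction was 3.15 ± 0.36 (SE, adjusted p = 0.00225), held in 8 of 8 fits, and parental SW480 cells had 3.61 and 4.95 CPM.

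**Figure D2:**
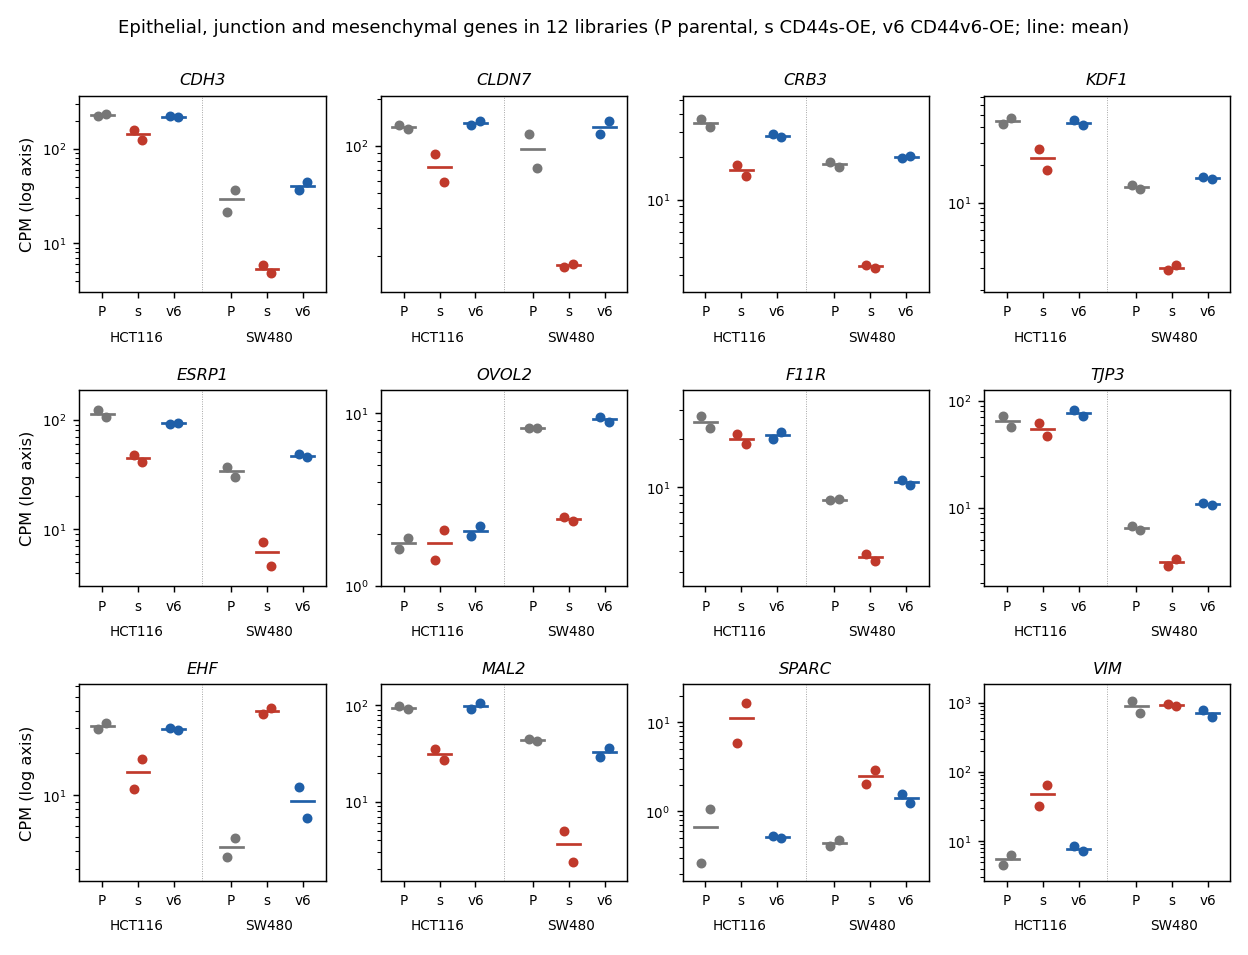
CPM (log axis) of 12 epithelial, junction and mesenchymal genes in the 12 libraries. Points are libraries, horizontal lines group means, and P, s and v6 mark parental, CD44s-OE and CD44v6-OE. For CDH3, CLDN7, CRB3, KDF1 and ESRP1 the SW480 CD44s-OE pair is the lowest of the 6 groups, whereas for SPARC and VIM the HCT116 CD44s-OE pair stands above the other HCT116 libraries.

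Of 26 tested mesenchymal and matrix genes, 3 were called negative and 0 positive, at a median interaction of -0.40. At an adjusted p under 0.1, 6 of the 26 were higher in CD44s-OE of HCT116 and 0 lower, and in SW480 1 was higher and 2 lower. Their median contrast was 0.55 in HCT116 and 0.06 in SW480. SPARC (chromosome 5, 151040657 to 151066536), a matricellular protein, was at 5.88 and 16.7 CPM in HCT116 CD44s-OE and 0.532 and 0.504 CPM in HCT116 CD44v6-OE. In SW480 SPARC was at 2.04 and 2.93 CPM in CD44s-OE and 1.57 and 1.25 CPM in CD44v6-OE. HCT116 CD44s-OE was the highest group, but its replicates differed widely. The contrasts were 4.44 (adjusted p = 0.00106) in HCT116 and 0.83 (adjusted p = 0.454) in SW480, and the interaction was -3.61 ± 0.63 (SE, adjusted p = 0.0192), called in 5 of 8 fits and lost without HCT116 CD44v6-OE replicate 2 or either SW480 CD44s-OE library (highest adjusted p 0.127).

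VIM (chromosome 10, 17270240 to 17279592), the intermediate filament vimentin, was at 32.01 and 65.8 CPM in HCT116 CD44s-OE and 8.44 and 7.13 CPM in HCT116 CD44v6-OE. In SW480 VIM was at 972 and 907 CPM in CD44s-OE and 803 and 632 CPM in CD44v6-OE, close to parental SW480 cells at 1085 and 724 CPM. In HCT116 the contrast was 2.66 (adjusted p = 0.00472), above a low parental level (4.59 and 6.38 CPM), and in SW480, where vimentin RNA was high throughout, it was 0.40 (adjusted p = 0.604). Its interaction was -2.25 ± 0.40 (SE, adjusted p = 0.0379), and the call held in 4 of 8 fits, being lost without either HCT116 CD44v6-OE library or either SW480 CD44s-OE library (highest adjusted p 0.303). VIM-AS1, on the opposite strand at the start of VIM, followed it with an interaction of -2.53 ± 0.58 (SE, adjusted p = 0.0774), called in 2 of 8 fits and not with all 12 libraries, at 1.83 and 3.68 CPM in HCT116 CD44s-OE and 0.380 and 0.466 CPM in HCT116 CD44v6-OE. In SW480 VIM-AS1 was at 1.16 and 1.38 CPM in CD44s-OE and 1.13 and 1.14 CPM in CD44v6-OE. Both genes overlap in position and were told apart by strand in the counting.

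TNC, the matrix protein tenascin C, was the called gene of this list with opposite changes in the lines. It was at 0.763 and 1.44 CPM in HCT116 CD44s-OE and 0.228 and 0.280 CPM in HCT116 CD44v6-OE. In SW480 TNC was at 3.99 and 2.21 CPM in CD44s-OE and 10.98 and 7.71 CPM in CD44v6-OE. HCT116 CD44s-OE was the higher and SW480 CD44s-OE the lower of each pair, with contrasts of 2.11 (adjusted p = 0.0582) and -1.58 (adjusted p = 0.0303) and an interaction of -3.69 ± 0.58 (SE, adjusted p = 0.0109) that held in 8 of 8 fits. COL6A1, a collagen VI chain, was at 309.6 and 405 CPM in HCT116 CD44s-OE and 244 and 213 CPM in HCT116 CD44v6-OE. In SW480 COL6A1 was at 78.8 and 73.9 CPM in CD44s-OE and 110.4 and 105 CPM in CD44v6-OE. The interaction of COL6A1 was -1.13 ± 0.22 (SE, adjusted p = 0.0317), called in 6 of 8 fits and not with all 12 libraries.

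Among markers of other cell types, 1 fibroblast gene moved with these changes, and its part in them was not tested. The summed level of 8 fibroblast markers was 7.97 and 20.1 CPM in HCT116 CD44s-OE, 1.48 to 1.51 CPM in HCT116 CD44v6-OE, 0.469 to 1.02 CPM in HCT116 parental cells and 0.859 to 1.37 CPM in the SW480 libraries. COL3A1, a fibrillar collagen, made up most of it, at 7.65 and 19.98 CPM in HCT116 CD44s-OE. Its interaction was not called (adjusted p = 0.81), and its SW480 libraries were at 0.0420 and 0.0198 CPM in SW480 CD44s-OE and 0 and 0.0219 CPM in SW480 CD44v6-OE. DCN, LUM and THY1 were at or below 0.0201 CPM in HCT116 CD44s-OE, and FAP was at 0. There, PDGFRA was at 0.120 and 0 CPM, PDGFRB at 0.141 and 0.114 CPM and COL1A2 at 0.0401 and 0 CPM. The fibroblast markers other than COL3A1 were thus at or below 0.141 CPM in these libraries. Leukocyte markers summed to at most 5.54 CPM and endothelial ones to at most 2.45 CPM in any library. Of the colon epithelium markers 8 were tested and 0 called, with EPCAM above and CDX2 at -0.74 (adjusted p = 0.323) as the lowest p-values. Pairs with the lowest p among the remaining marker lists were COL3A1 and PDGFRB (1.79, adjusted p = 0.484) for fibroblasts, LYZ (-0.85, adjusted p = 0.816) and CD14 (0.55, adjusted p = 0.881) for leukocytes, and VWF (-1.13, adjusted p = 0.49) and TIE1 (-1.27, adjusted p = 0.781) for endothelium.

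The gene with the smallest p-value was NOS3 (chromosome 7, 150688105 to 150711676), which encodes endothelial nitric oxide synthase. It was at 49.8 and 45.9 CPM in HCT116 CD44s-OE and 58.1 and 58.8 CPM in HCT116 CD44v6-OE. In SW480 NOS3 was at 2.899 and 3.02 CPM in CD44s-OE and 47.4 and 48.5 CPM in CD44v6-OE. Both SW480 CD44s-OE libraries were low and the other 6 OE libraries lay close together, and the interaction was -3.72 ± 0.22 (SE, adjusted p = 3.51e-06), called in 8 of 8 fits. The parental SW480 libraries, however, had 95.2 and 8.13 CPM and so covered most of this range, and with all 12 libraries in the fit NOS3 was no longer called (adjusted p = 0.491). SLC1A3 (chromosome 5, 36606457 to 36688436), a glutamate transporter, was the mirror image. SLC1A3 stood at 7.55 and 4.21 CPM in HCT116 CD44s-OE and 12.5 and 13.8 CPM in HCT116 CD44v6-OE. In SW480 it stood at 76.3 and 78.9 CPM in CD44s-OE and 2.99 and 5.43 CPM in CD44v6-OE. The SW480 CD44s-OE pair was the highest by far, and the interaction of 5.37 ± 0.42 (SE, adjusted p = 1.13e-04) was the largest positive one among genes of at least 1 CPM in both lines. Parental SW480 cells had 1.77 and 20.6 CPM of SLC1A3, which held in 8 of 8 fits, and with all 12 libraries it was not called (adjusted p = 0.298).

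Other genes with large negative interactions were low in SW480 CD44s-OE and did not pass the test in HCT116. SHANK2, a synaptic and epithelial scaffold, was at 15.6 and 8.31 CPM in HCT116 CD44s-OE and 13.01 and 12.3 CPM in HCT116 CD44v6-OE. In SW480 SHANK2 was at 0.504 and 0.751 CPM in CD44s-OE and 4.52 and 5.100 CPM in CD44v6-OE, and its interaction was -2.84 ± 0.44 (SE, adjusted p = 0.0106). WNT10A, a Wnt ligand, was at 3.13 and 1.25 CPM in HCT116 CD44s-OE and 2.34 and 2.52 CPM in HCT116 CD44v6-OE. SW480 cells had 6.01 and 4.57 CPM in CD44s-OE and 36.2 and 36.2 CPM in CD44v6-OE of WNT10A, and its interaction of -2.62 ± 0.45 (SE, adjusted p = 0.018) held in 5 of 8 fits, not without either HCT116 CD44v6-OE library or without SW480 CD44s-OE replicate 2. PARM1 and NPNT followed the same pattern, with interactions of -2.60 ± 0.41 (SE, adjusted p = 0.0109) and -3.14 ± 0.61 (SE, adjusted p = 0.0379). PARM1 went from 4.28 and 4.64 CPM in SW480 CD44v6-OE to 0.924 and 0.672 CPM in SW480 CD44s-OE, and NPNT, encoding the matrix protein nephronectin, from 3.601 and 1.58 to 0.168 and 0.553 CPM. The calls held in 8 of 8 fits for SHANK2, 7 of 8 for PARM1 and 5 of 8 for NPNT, and PARM1 was not called with all 12 libraries. The HCT116 contrasts of PARM1 and NPNT were 0.13 and 0.34, neither of which passed the test.

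In a second set of genes with negative interactions, CD44s-OE was higher than CD44v6-OE in HCT116. DCLK1, a microtubule-associated kinase, was at 2.53 and 3.81 CPM in HCT116 CD44s-OE and 0.837 and 0.672 CPM in HCT116 CD44v6-OE. In SW480 DCLK1 was at 31.6 and 20.4 CPM in CD44s-OE and 36.1 and 37.02 CPM in CD44v6-OE, with an interaction of -2.56 ± 0.37 (SE, adjusted p = 0.0083). DRAXIN, a secreted Wnt antagonist and axon guidance protein, was at 10.2 and 14.6 CPM in HCT116 CD44s-OE and 4.51 and 2.72 CPM in HCT116 CD44v6-OE. In SW480 DRAXIN was at 5.76 and 3.93 CPM in CD44s-OE and 10.3 and 9.11 CPM in CD44v6-OE, and the contrast changed sign between the lines (1.78 and -0.995; interaction -2.77 ± 0.41, SE, adjusted p = 0.0083). FAM189A1 passed the test in SW480 and not in HCT116. With contrasts of 1.62 (adjusted p = 0.134) in HCT116 and -1.21 (adjusted p = 0.099) in SW480, it had an interaction of -2.84 ± 0.55 (SE, adjusted p = 0.0334), called in 5 of 8 fits. PRSS33, a serine protease gene, had an interaction of -3.43 ± 0.78 (SE, adjusted p = 0.0814). The HCT116 CD44s-OE replicates of PRSS33 were at 1.83 and 7.74 CPM, and its call held in 2 of 8 fits. DCLK1 and DRAXIN held in 8 of 8. With all 12 libraries DCLK1 and PRSS33 were not called.

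Called genes with positive interactions were fewer, and 27 of the 48 passed the test in SW480 alone. GATA6, an endodermal transcription factor and the 1 called gene of 14 intestinal lineage factors, was at 12.5 and 9.297 CPM in HCT116 CD44s-OE and 13.1 and 11.7 CPM in HCT116 CD44v6-OE. In SW480 GATA6 was at 2.12 and 2.53 CPM in CD44s-OE and 0.567 and 0.438 CPM in CD44v6-OE, the CD44s-OE pair being the high one, with an interaction of 2.40 ± 0.38 (SE, adjusted p = 0.0113). ENPP1, an ectonucleotide pyrophosphatase, was at 1.85 and 1.78 CPM in SW480 CD44s-OE and 0.262 and 0.306 CPM in SW480 CD44v6-OE. Its HCT116 groups overlapped, at 6.66 and 6.45 CPM in HCT116 CD44s-OE and 6.29 and 8.17 CPM in HCT116 CD44v6-OE, and its interaction was 2.81 ± 0.42 (SE, adjusted p = 0.0083). GDA, guanine deaminase, was at 19.96 and 21.3 CPM in SW480 CD44s-OE and 7.03 and 4.25 CPM in SW480 CD44v6-OE. With 33.96 and 42.5 CPM in HCT116 CD44s-OE and 39.4 and 46.1 CPM in HCT116 CD44v6-OE, GDA had an interaction of 2.04 ± 0.31 (SE, adjusted p = 0.0103). HOXD-AS2, a long non-coding RNA of the HOXD cluster, and ASTN2 had interactions of 3.49 ± 0.56 (SE, adjusted p = 0.0114) and 2.13 ± 0.36 (SE, adjusted p = 0.0159). HOXD-AS2 was at 2.84 and 2.49 CPM in SW480 CD44s-OE and 0.240 and 0.416 CPM in SW480 CD44v6-OE, whereas ASTN2 was at 17.5 and 21.7 CPM in SW480 CD44s-OE and 7.59 and 8.12 CPM in SW480 CD44v6-OE. ASTN2 stayed called in 7 of 8 fits and the other 4 genes in 8 of 8. With all 12 libraries ENPP1 was not called.

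In other genes with a positive interaction, HCT116 CD44s-OE stood below HCT116 CD44v6-OE. MUC16, the transmembrane mucin CA125, was at 1.104 and 0.873 CPM in HCT116 CD44s-OE and 4.28 and 2.72 CPM in HCT116 CD44v6-OE. Parental HCT116 cells had 0.588 and 0.195 CPM of MUC16, below both OE groups. In SW480 MUC16 was at 41.5 and 41.5 CPM in CD44s-OE and 37.7 and 38.05 CPM in CD44v6-OE, with overlap between neither pair, and its interaction was 1.96 ± 0.32 (SE, adjusted p = 0.0125). RBBP8NL had an interaction of 2.84 ± 0.63 (SE, adjusted p = 0.0653) at 0.401 and 0.133 CPM in HCT116 CD44s-OE and 3.06 and 1.903 CPM in HCT116 CD44v6-OE. The call of RBBP8NL held in 2 of 8 fits, whereas that of MUC16 held in 8 of 8. Both were lost with all 12 libraries and by voom (highest adjusted p of MUC16 0.129).

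**Figure D3:**
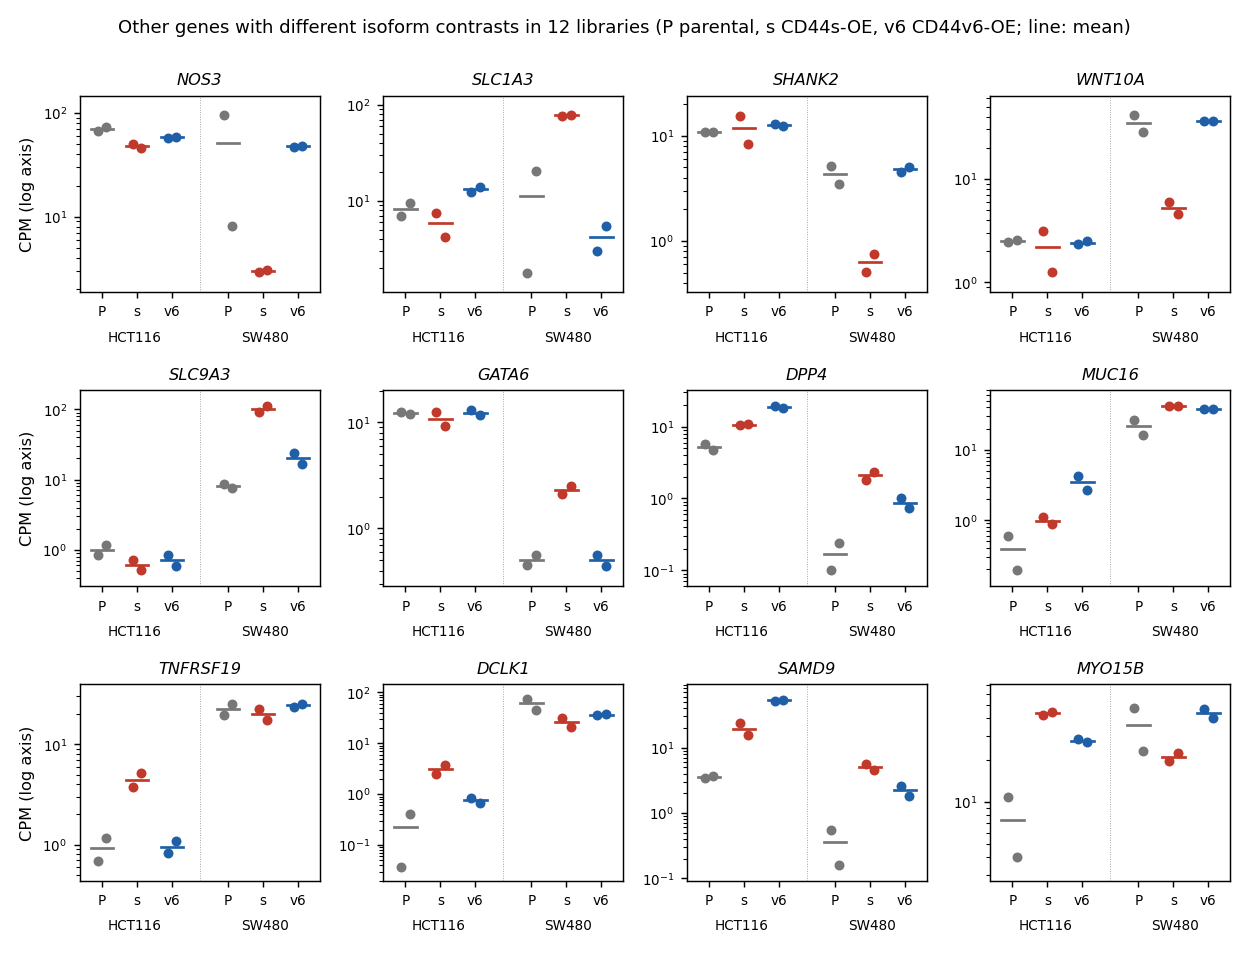
CPM (log axis) of 12 further genes in the 12 libraries, with points, lines and letters as in the plot of epithelial genes. NOS3, SHANK2 and WNT10A are lowest in SW480 CD44s-OE among the SW480 OE libraries, SLC1A3, SLC9A3 and GATA6 highest, and the parental SW480 libraries of NOS3 and SLC1A3 lie far apart from each other.

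In 5 called genes each line passed the test in its own direction, and the 3 with the smallest p are given here. SAMD9 (chromosome 7, 92728826 to 92747336), an interferon-inducible antiviral gene, was at 23.4 and 15.5 CPM in HCT116 CD44s-OE and 51.8 and 53.03 CPM in HCT116 CD44v6-OE. In SW480 SAMD9 was at 5.59 and 4.55 CPM in CD44s-OE and 2.62 and 1.84 CPM in CD44v6-OE. Its contrasts were -1.43 (adjusted p = 0.0101) in HCT116 and 1.19 (adjusted p = 0.0188) in SW480, and its interaction was 2.62 ± 0.33 (SE, adjusted p = 0.00505). MYO15B, an unconventional myosin gene, was at 42.6 and 44.6 CPM in HCT116 CD44s-OE and 28.4 and 27.1 CPM in HCT116 CD44v6-OE. In SW480 MYO15B was at 19.7 and 22.4 CPM in CD44s-OE and 46.6 and 40.6 CPM in CD44v6-OE, so it was higher in CD44s-OE of HCT116 and lower in CD44s-OE of SW480 (interaction -1.69 ± 0.23, SE, adjusted p = 0.00543). PMEPA1, a TGF-beta target that restrains TGF-beta and androgen signalling, was at 2.35 and 3.76 CPM in HCT116 CD44s-OE and 1.37 and 1.04 CPM in HCT116 CD44v6-OE. In SW480 PMEPA1 was at 39.8 and 30.7 CPM in CD44s-OE and 71.7 and 77.01 CPM in CD44v6-OE, with contrasts of 1.34 and -1.07 and an interaction of -2.41 ± 0.34 (SE, adjusted p = 0.00725). Each held in 8 of 8 fits, but MYO15B and PMEPA1 were not called with all 12 libraries in the fit (adjusted p = 0.411 and 0.386).

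Called Wnt target genes were mostly high in HCT116 CD44s-OE. Of 21 tested, 4 were called negative and 0 positive, at a median interaction of -0.36. At an adjusted p under 0.1, 6 were higher in CD44s-OE in HCT116 and 2 in SW480, and 0 were lower in either line. TNFRSF19 (TROY), a receptor of the TNF family, was at 3.71 and 5.199 CPM in HCT116 CD44s-OE and 0.837 and 1.08 CPM in HCT116 CD44v6-OE. In SW480 TNFRSF19 was at 22.5 and 17.6 CPM in CD44s-OE and 23.5 and 25.3 CPM in CD44v6-OE, and its interaction was -2.49 ± 0.33 (SE, adjusted p = 0.00543), called in 8 of 8 fits. SP5, a transcription factor induced by Wnt signals, was at 8.63 and 9.11 CPM in HCT116 CD44s-OE and 3.33 and 2.76 CPM in HCT116 CD44v6-OE. It was far more abundant in SW480, at 335 and 395 CPM in SW480 CD44s-OE and 319 and 279 CPM in SW480 CD44v6-OE, with an interaction of -1.25 ± 0.22 (SE, adjusted p = 0.0202), called in 7 of 8 fits. NOTUM, a secreted deacylase that inactivates Wnt ligands, had 48.05 and 46.2 CPM in HCT116 CD44s-OE and 24.1 and 18.7 CPM in HCT116 CD44v6-OE. In SW480 NOTUM was at 189.5 and 225 CPM in CD44s-OE and 294 and 189 CPM in CD44v6-OE, where the pairs overlapped, and its interaction was -1.35 ± 0.28 (SE, adjusted p = 0.0461), called in 4 of 8 fits. APCDD1, another Wnt inhibitor, was called at an adjusted p of 0.0425, but its HCT116 levels of 0.241 and 0.569 CPM in HCT116 CD44s-OE and 0.0190 and 0.0187 CPM in HCT116 CD44v6-OE are too low for a fold to be read. It stayed called in 4 of 8 fits and not with all 12 libraries.

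Called genes were 2 of 15 tested in the Notch list, 2 of 18 among integrins and laminins, 1 of 20 among ERK output genes and 2 of 14 among YAP and TAZ targets. All had a negative interaction, which was also the sign of 175 of all 223 called genes. DLL1 and JAG1, both Notch ligands, had interactions of -1.89 ± 0.40 (SE, adjusted p = 0.05) and -1.11 ± 0.24 (SE, adjusted p = 0.0605). DLL1 was lower in SW480 CD44s-OE, at 0.819 and 0.949 CPM in SW480 CD44s-OE and 2.99 and 3.02 CPM in SW480 CD44v6-OE. JAG1 was higher in HCT116 CD44s-OE, at 75.2 and 57.9 CPM in HCT116 CD44s-OE and 36.2 and 34.4 CPM in HCT116 CD44v6-OE. The integrin subunits ITGA2 and ITGB4 had interactions of -1.43 ± 0.26 (SE, adjusted p = 0.0203) and -1.06 ± 0.22 (SE, adjusted p = 0.0398), and ITGA2 was at 85.7 and 73.8 CPM in HCT116 CD44s-OE and 52.1 and 59.97 CPM in HCT116 CD44v6-OE. In SW480 ITGA2 was at 18.6 and 13.4 CPM in CD44s-OE and 32.7 and 27.8 CPM in CD44v6-OE. DUSP6, a phosphatase induced by ERK signalling, was at 249 and 312 CPM in HCT116 CD44s-OE and 124 and 129 CPM in HCT116 CD44v6-OE. Its SW480 pairs overlapped, at 279.7 and 247 CPM in CD44s-OE and 252 and 273 CPM in CD44v6-OE, and its interaction was -1.14 ± 0.21 (SE, adjusted p = 0.0216). Of the tested ERK output genes, 18 of 20 had a negative interaction and 1 was called, at a median of -0.44. Among all genes tested, 51.1% had a negative interaction and 0.914% were called negative. The YAP and TAZ list held ANKRD1 (-3.34, adjusted p = 0.0334) and WWTR1, which encodes TAZ (-0.86, adjusted p = 0.0942). ANKRD1 was at most 1.27 CPM in any HCT116 library and WWTR1 stayed called in 2 of 8 fits. The calls held in 6 of 8 fits for ITGA2, 5 of 8 for ANKRD1, 4 of 8 for ITGB4 and for DUSP6, 3 of 8 for DLL1 and 2 of 8 for JAG1. GPRC5A, an orphan receptor, was the 1 called gene of 19 tested in the list of G protein-coupled receptors and their regulators. Its interaction was -1.37 (adjusted p = 0.0083), with 27.3 and 25.1 CPM in SW480 CD44s-OE and 54.01 and 61.5 CPM in SW480 CD44v6-OE. It held in 8 of 8 fits. With all 12 libraries JAG1, ITGA2, ITGB4, ANKRD1, WWTR1 and GPRC5A (adjusted p = 0.661) were not called.

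Of 18 brush border and enterocyte genes, 2 were called positive and 1 negative, at a median interaction of -0.84. ESPN, an actin-bundling protein of microvilli, was at 124 and 122 CPM in HCT116 CD44s-OE and 149 and 130.5 CPM in HCT116 CD44v6-OE. In SW480 ESPN was at 19.6 and 25.98 CPM in CD44s-OE and 97.96 and 85.1 CPM in CD44v6-OE, with an interaction of -1.82 ± 0.23 (SE, adjusted p = 0.00505). SLC9A3, the sodium/proton exchanger NHE3, rose in SW480 CD44s-OE, at 92.6 and 111 CPM in SW480 CD44s-OE and 23.9 and 16.7 CPM in SW480 CD44v6-OE. It was below 1 CPM in each HCT116 OE library, and its interaction was 2.57 ± 0.38 (SE, adjusted p = 0.0083). DPP4, a brush border peptidase, was at 10.5 and 10.7 CPM in HCT116 CD44s-OE and 19.03 and 18.2 CPM in HCT116 CD44v6-OE. In SW480 DPP4 was at 1.83 and 2.35 CPM in CD44s-OE and 1.004 and 0.744 CPM in CD44v6-OE, so CD44s-OE was the lower group in HCT116 and the higher in SW480, with an interaction of 2.08 ± 0.34 (SE, adjusted p = 0.0125). ESPN and SLC9A3 held in 8 of 8 fits and DPP4 in 7 of 8, being lost without SW480 CD44s-OE replicate 2 (adjusted p = 0.103).

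Respiratory genes of the mitochondrial and nuclear genomes had interactions of opposite sign. Each of the 13 mitochondrially encoded genes had a negative interaction, at a median of -1.18, and 2 were called, MT-ND6 (-1.81, adjusted p = 0.0231) and MT-ND1 (-1.18, adjusted p = 0.0927), both subunits of complex I. MT-ND1 was at 4725 and 4442 CPM in HCT116 CD44s-OE and 2714 and 2674 CPM in HCT116 CD44v6-OE. In SW480 MT-ND1 was at 2967 and 2094 CPM in CD44s-OE and 2711 and 4053 CPM in CD44v6-OE, where the replicates of each group differed and the groups overlapped. With a library left out, 0 to 6 of the 13 were called by edgeR, and DESeq2 called 6. MT-ND6 and MT-ND1 each held in 4 of 8 fits, and neither was called with all 12 libraries. Over these 13 genes the median log2 difference between replicates 2 and 1 was 0.81 in SW480 CD44v6-OE and -0.50 in SW480 CD44s-OE. Of 55 nuclear-encoded genes of oxidative phosphorylation, 47 had a positive interaction and 0 were called by edgeR or DESeq2 (5 at an unadjusted p under 0.05 by edgeR), at a median of 0.20. COX7B (0.81, adjusted p = 0.235) and ATP5MC1 (0.67, adjusted p = 0.292) had the lowest p-values. In SW480 CD44s-OE, 2 of these 55 nuclear-encoded genes were lower in replicate 2 than in replicate 1, with a median log2 difference of 0.36, which exceeds the interaction median.

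For the interferon-stimulated genes, the list median depended on 1 pair of libraries. Of 34 tested, SAMD9 and SAMD9L were called, both positive, and the median interaction was 0.56. SAMD9L was called at an adjusted p of 0.091 at 0.522 and 0.190 CPM in HCT116 CD44s-OE and 2.05 and 2.16 CPM in HCT116 CD44v6-OE, and below 0.2 CPM in every SW480 library. Its call held in 2 of 8 fits and not with all 12 libraries. All 34 genes were lower in replicate 2 than in replicate 1 of HCT116 CD44s-OE, with a median log2 difference of -2.21. In the other OE groups that difference was below 0.01 in size in HCT116 CD44v6-OE, 0.08 in SW480 CD44s-OE and -0.12 in SW480 CD44v6-OE. Against parental cells, replicate 2 was not low for every gene. IFIT1 was at 5.18 and 8.39 CPM in HCT116 parental cells, 229.9 and 39.03 CPM in HCT116 CD44s-OE and 264.2 and 254.8 CPM in HCT116 CD44v6-OE. For OAS3 these levels were 82.45 and 91.15, 385.9 and 66.09, and 245.9 and 236.2 CPM, so replicate 2 lay below parental cells there. Without replicate 1 of HCT116 CD44s-OE the median interaction of the list became 2.18, with 22 genes called positive, and without replicate 2 it became -0.22, with 4 called positive and 10 negative. The direction of the list thus depended on which library of that pair was kept. Antigen presentation genes showed the same order in that pair, with 19 of 19 lower in replicate 2 and a median difference of -1.14. In that list edgeR called 0 genes (5 at an unadjusted p under 0.05) and DESeq2 2. Without replicate 1 of HCT116 CD44s-OE 4 were called positive, at a median of 0.53 in place of -0.35, and without replicate 2 12 were called negative, at a median of -0.85. The lowest p-values were those of CD74 (-1.85, adjusted p = 0.128) and TAPBP (-0.70, adjusted p = 0.191).

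**Figure D4:**
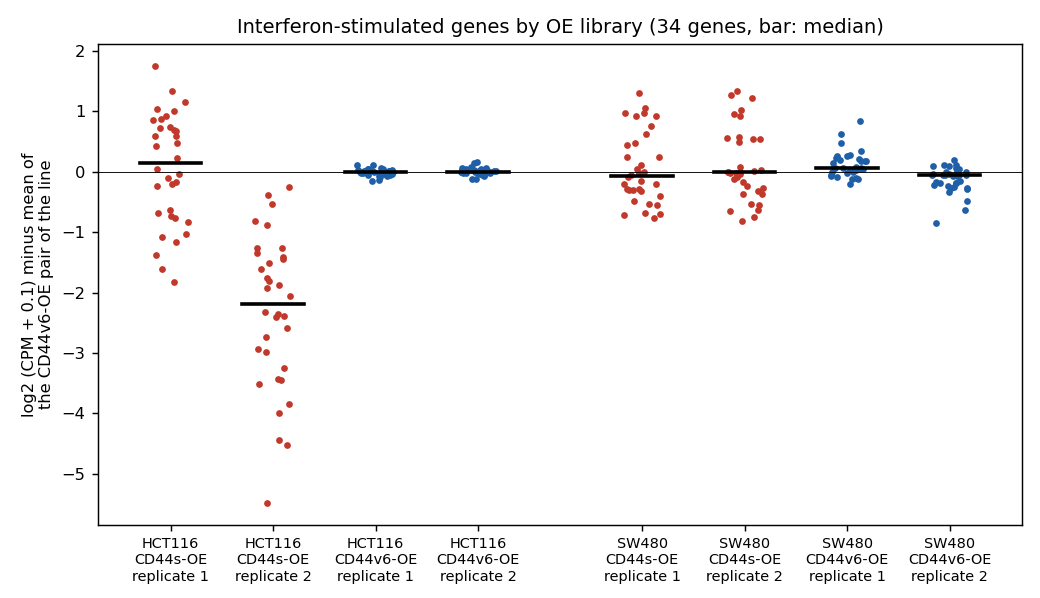
Log2 (CPM + 0.1) of 34 interferon-stimulated genes in each OE library, minus the mean of the 2 CD44v6-OE libraries of the same line (vertical axis). Parental libraries are not drawn. Points are genes and bars are medians, and HCT116 CD44s-OE replicate 2 has a median of -2.18 where the other 7 OE libraries lie between -0.06 and 0.15.

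The proliferation and biosynthesis lists also depended on HCT116 CD44s-OE. The interaction was positive for 21 of 22 S phase genes (median 0.33), 18 of 21 mitosis genes (0.19) and 21 of 21 MYC and ribosome biogenesis genes (0.39), each beside a median of -0.01 for all genes. Without replicate 2 of HCT116 CD44s-OE, 5 S phase, 6 mitosis and 6 MYC genes were called positive, and the mitosis median was 0.46, against 0.06 without replicate 1. All 21 mitosis genes were higher in replicate 2 of that pair, by a median of 0.43 on the log2 scale, which exceeds the interaction median. With all 8 libraries 1 gene of these lists was called, GINS2, a replication factor, at 66.2 and 78.4 CPM in HCT116 CD44s-OE and 113 and 103 CPM in HCT116 CD44v6-OE. In SW480 GINS2 was at 91.9 and 108 CPM in CD44s-OE and 78.7 and 78.4 CPM in CD44v6-OE, and its interaction of 0.94 ± 0.21 (SE, adjusted p = 0.0723) held in 3 of 8 fits and not with all 12 libraries. CDC20 and PLK1, mitotic regulators, had interactions of 0.64 and 0.58 that were not called. In the ribosome biogenesis list SRM and RRP9 had 0.73 and 0.65, also not called.

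In 16 lists of 355 tested genes together, edgeR called 0 genes, while 59 had an unadjusted p under 0.05 and DESeq2 called 6. Without HCT116 CD44s-OE replicate 2 edgeR called 70 genes in these lists, and without replicate 1 24, so the count of 0 depended on that pair. Members with the lowest p in those not yet described had the following interactions, none of them called. They were PPL (-0.78) and KRT7 (1.13) among keratins and desmosome genes, MET (-0.83) and ANK3 (-1.37) among CD44 partners, SOD2 (0.55) among NF-kappaB response genes, IL23A (-1.49) among chemokines and cytokines, and KLF2 (-0.72) and KLF6 (-0.50) among immediate early genes. They were TGFBI (-1.94) and LTBP1 (1.22) among BMP and TGF-beta response genes, RRM2B (0.73) and MDM2 (0.41) among p53 targets, SQLE (0.62) among lipid synthesis genes and ANKRD37 (1.32) and VEGFA (-0.64) among glycolysis and hypoxia genes. Last, they were PHGDH (-0.80) and ATF4 (-0.40) among unfolded protein genes, NQO1 (0.65) and HMOX1 (0.56) among NRF2 targets and RPS7 (0.40) and RPLP0 (0.31) among ribosomal protein genes. CXCL10 and LTB, also among these, lay under 3 CPM in every library, with 1 OE group at 0, and no size is given for them. The HOX list held 1 called gene of 35 tested, HOXD4 (adjusted p = 0.0927), which was under 1 CPM in each OE library. Its call held in 2 of 8 fits and not with all 12 libraries.

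**Figure D5:**
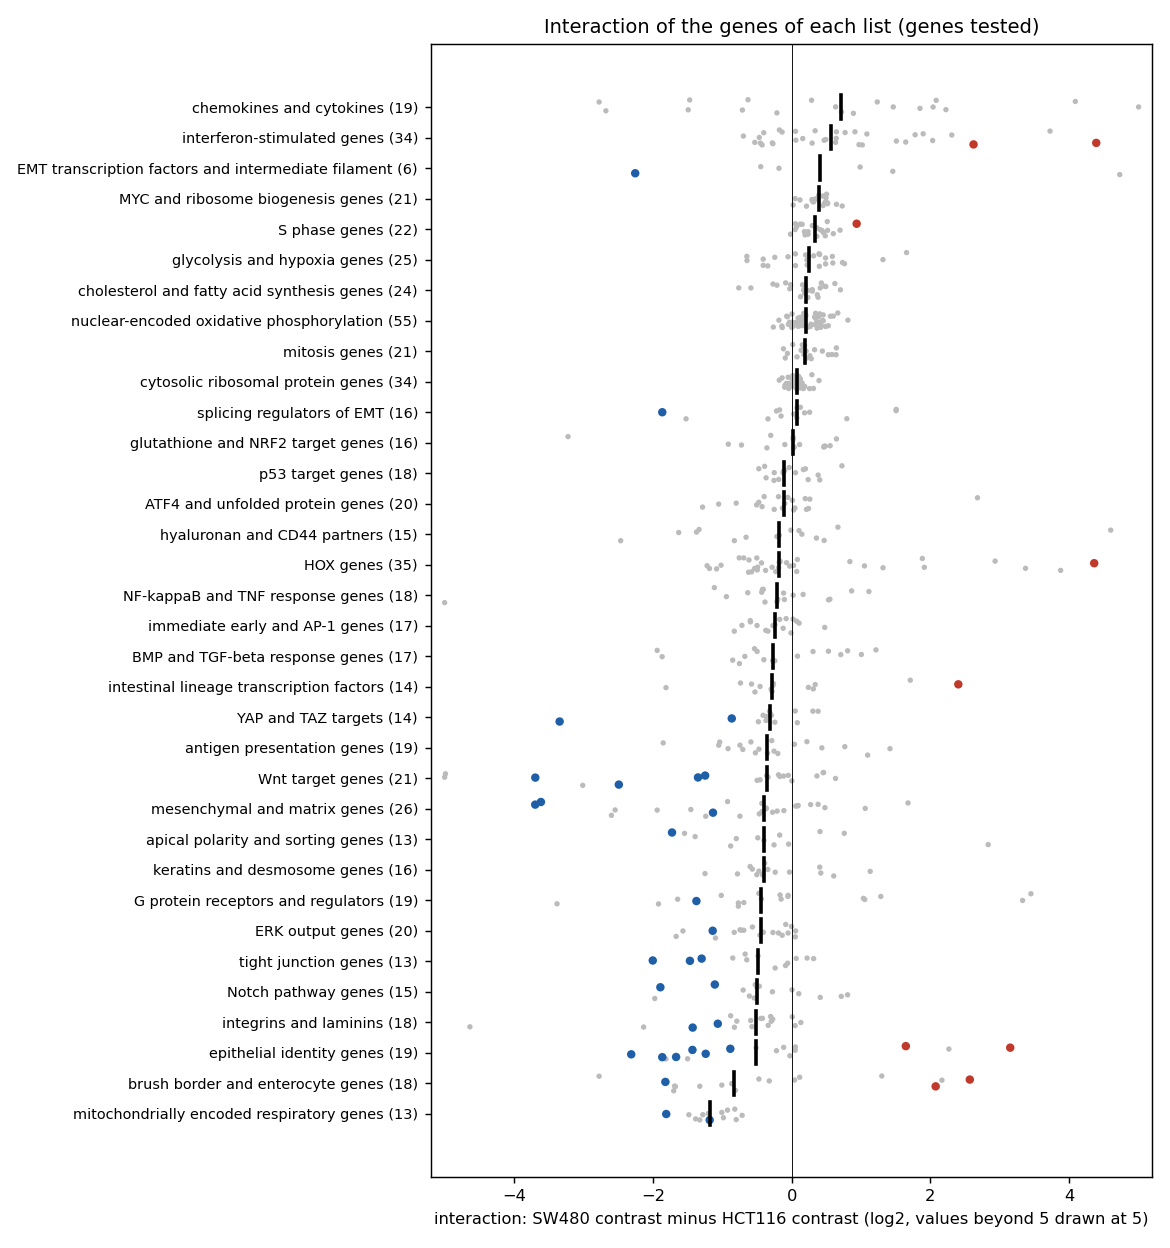
Interaction (log2, horizontal axis) of each tested gene in 34 gene lists, ordered by their median (black bar), with the number of tested genes in brackets. Blue and red points are genes called negative and positive and gray points are not called, values beyond 5 being drawn at 5. The lists exclude marker genes and the genes the study names. Among those drawn, respiratory genes encoded by mitochondria have the lowest median (-1.18), and the epithelial list holds the most calls, 6 negative and 2 positive.

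Some called genes were expressed in 1 line and nearly absent from the other, and their interaction turned on a few counts. GJB1, the gap junction protein connexin 32, was at 236 and 282 CPM in SW480 CD44s-OE and 306 and 276 CPM in SW480 CD44v6-OE. In HCT116 GJB1 was at 0.181 and 0.417 CPM in HCT116 CD44s-OE and 0 and 0 CPM in HCT116 CD44v6-OE. PASD1, a cancer-testis antigen, was at 89.9 and 88.05 CPM in SW480 CD44s-OE and 80.1 and 81.8 CPM in SW480 CD44v6-OE, and CST7, the inhibitor cystatin F, was at 125 and 146 CPM in SW480 CD44s-OE and 181 and 172 CPM in SW480 CD44v6-OE. Both were listed at 0 in HCT116 CD44v6-OE and at most 0.171 CPM in HCT116 CD44s-OE. All 3 had negative interactions. The largest positive fitted values belonged to LINC02178, ALPK2 and ABCB4, of which ABCB4, a phospholipid transporter, was at 8.47 and 7.77 CPM in SW480 CD44s-OE and 3.16 and 4.25 CPM in SW480 CD44v6-OE. LINC02178 was at 7.31 and 17.9 CPM in SW480 CD44s-OE and 0.502 and 0.897 CPM in SW480 CD44v6-OE, ALPK2 was at 1.22 and 0.830 CPM in SW480 CD44s-OE and 0.131 and 0.0438 CPM in SW480 CD44v6-OE, and in HCT116 OE libraries these 3 genes were at or below 0.187 CPM. The calls held in 8 of 8 fits for GJB1, 6 of 8 for PASD1 and for CST7, 4 of 8 for ALPK2 and for LINC02178 and 3 of 8 for ABCB4, and CST7, ALPK2, LINC02178 and ABCB4 were not called with all 12 libraries. No fold is read for these 6 genes, since a fitted value against 0 or few counts depends on the prior count.

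The share called was highest on chromosome 7 (2.07% of 966 tested genes) and lowest on chromosome 3 (0.748% of 1069) among the autosomes and X. The median contrast of all tested genes on a chromosome stayed within 0.05 of 0 in HCT116, whereas in SW480 it was -0.19 on chromosome 13, -0.13 on chromosome 17, -0.11 on chromosome 14 and 0.11 on chromosome 2. The interaction medians of these 4 chromosomes were -0.23, -0.15, -0.14 and 0.09. The part of these chromosome shifts in single genes was not tested.

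Called genes with a negative interaction were rich in GC. The median GC content of their longest transcript was 56.5%, against 49.3% for all genes tested and 47.6% for called genes with a positive interaction. Across 4 equal bins of GC content, from lowest to highest, the median interaction ran from 0.09 through -0.01 and -0.04 to -0.11, and the share called negative from 0.293% through 0.629% and 0.943% to 1.8%. With a GC correction of each library, chosen after seeing the data, these medians were 0.01, -0.03, -0.03 and -0.05. The genes called negative in the bins of 4772 genes were 29, 41, 53 and 87 after it, against 14, 30, 45 and 86 before. Negative calls thus still rose with GC content. The corrected fit called 275 genes, 211 of the 223 among them, with 65 positive and 210 negative.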

How the data were processed

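Poly(A) RNA of 12 samples was sequenced by the authors. As deposited, the first table holds raw counts per gene, which the authors made by aligning reads with STAR 2.7.9a to hg19 and counting them by strand with featureCounts of Subread 2.0.3 on GENCODE exons, both reads of a pair being counted. The second table holds log2-scale values from the variance stabilization of the authors (DESeq2 1.30.1) and was used for 1 alternative.

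Groups were taken from the labels. The counts of the 8 OE libraries were fitted with edgeR 4.0.16 in R 4.3.3 (TMM, filterByExpr, robust quasi-likelihood test, 4 groups, 4 residual degrees of freedom), and the interaction was tested over 19155 genes. Calls needed an adjusted p (Benjamini-Hochberg) under 0.1; within a line, those with a fold also needed an absolute log2 fold change over 1.5. Fold changes are log2 with their SE, and the floor of detection was 6 counts, that is 3 read pairs, or 0.114 to 0.139 CPM. Floors cover counting error only. The script was tested on simulated data. Totals per OE library were 45292248 to 51981303 counts.

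The members and lists were chosen with earlier results of these data known. The text names the 12 called genes with the largest interaction in each direction (at least 1 CPM in both lines, no overlap of the OE pairs in at least 1 line), the 12 genes the study names, up to 4 called members of each list in each direction or the 2 members with the smallest p, the 3 most changed genes in each direction that were below 1 CPM in 1 line, and the 3 genes with opposite contrasts and the smallest p. PALS1 and RIGI matched no gene. Results for some genes of this rule are not reported here.

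Alternatives were size factors, filters on low counts, a fit without robust estimation, DESeq2 1.42.0, limma 3.58.1 (voom), all 12 libraries, the replicate number as a block, halved counts, other thresholds and each library left out. A GC correction, limma on the variance-stabilized values and a crossed block were chosen after seeing the data.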

Additional observations from a re-analysis of the deposited data

Results flagged for a closer look

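These genes were singled out because their isoform contrast differed between the lines by a test of the difference itself (edgeR interaction, adjusted p under 0.1), and the values are the log2 contrast in SW480 minus that in HCT116. Each is described with its libraries in the report.

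The negative values beyond 2 on the log2 scale were those of NOS3 (-3.72), TNC (-3.69), SPARC (-3.61), PRSS33 (-3.43), NPNT (-3.14), FAM189A1 (-2.84), SHANK2 (-2.84), DRAXIN (-2.77), WNT10A (-2.62), PARM1 (-2.60), DCLK1 (-2.56), VIM-AS1 (-2.53), TNFRSF19 (-2.49), PMEPA1 (-2.41), CDH3 (-2.31), VIM (-2.25) and CLDN7 (-2.001). Negative values of smaller size were those of DLL1 (-1.89), ESRP1 (-1.86), ESPN (-1.82), MT-ND6 (-1.81), CRB3 (-1.72), MYO15B (-1.69), OVOL2 (-1.66), F11R (-1.47), KDF1 (-1.43), ITGA2 (-1.43), GPRC5A (-1.37), NOTUM (-1.35), TJP3 (-1.30), SP5 (-1.25), MT-ND1 (-1.18), DUSP6 (-1.14), COL6A1 (-1.13), JAG1 (-1.11), ITGB4 (-1.06) and WWTR1 (-0.86).

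Positive values were found for SLC1A3 (5.37), HOXD-AS2 (3.49), EHF (3.15), RBBP8NL (2.84), ENPP1 (2.81), SAMD9 (2.62), SLC9A3 (2.57), GATA6 (2.40), ASTN2 (2.13), DPP4 (2.08), GDA (2.04), MUC16 (1.96) and GINS2 (0.94).

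In 1 line the levels of some of these genes were near or at 0, so that their fitted values depend on the prior count and give no size. Among them the negative ones were GJB1 (-7.07), CST7 (-5.94), PASD1 (-5.83), APCDD1 (-3.69) and ANKRD1 (-3.34), and the positive ones were LINC02178 (8.73), ALPK2 (6.40), ABCB4 (6.26), SAMD9L (4.39) and HOXD4 (4.36).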

How the results depend on the processing

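With 2 libraries per group, the number of called genes was the least stable quantity. The interaction called 223 genes as reported, 599 with no filter on low counts, 483 by DESeq2 (220 of the 223 among them), 96 with all 12 libraries, 132 at an adjusted p under 0.05, 131 with an absolute difference over 1.5 and 60 to 1284 with a library left out. RLE size factors, both other filters, a fit without robust estimation, voom and halved counts gave 199 to 239. Of the alternatives chosen after seeing the data, limma on the variance-stabilized values gave 354, and the GC correction gave 275. Within HCT116, 81 genes passed an adjusted p under 0.1 with an absolute log2 fold change over 1.5, against 167 with no filter, 46 with only genes at 1 CPM in each line, 46 with all 12 libraries, 25 by limma on the variance-stabilized values and 19 to 326 with a library left out. Within SW480 the same count was 278, against 129 with only genes at 1 CPM in each line, 87 by limma on the variance-stabilized values and 126 to 359 with a library left out. The cause of these shifts was not tested.

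Replicate numbers do not mark a shared culture in the labels. The correlation of same-numbered deviations was 0.16 in HCT116 and -0.16 in SW480, and a replicate block called 229 genes, 198 of the 223 among them, and 55 of the 60 called genes named in the text. With the SW480 numbers crossed, 359 genes were called.

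None of the 60 called genes named by the rule changed sign under any alternative that gave it a value. With a library left out, 29 to 60 of them stayed called, and with all 12 libraries 31. Sign changes were seen in genes that were not called: interaction of TIE1 (-2.09 to 0.56), interaction of LYZ (-1.51 to 0.42) and interaction of CD14 (-0.78 to 1.22) with a library left out, all of which had under 40 counts in each HCT116 OE library.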
